A study of Mus musculus with 8 samples.

Results

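The genes described here mark T cells and natural killer (NK) cells, and they were read in cells sorted as macrophages from the mouse mammary gland. A list of 10 gene symbols was looked up in the deposited table, and for each gene the probe set with that symbol alone and the highest mean signal over all arrays was taken. This found 9 of the 10, among 18193 genes with a probe set of their own: Cd2, Cd3e, Cd3g and Cd4 of T cells, the cytotoxic granule genes Gzma, Gzmb and Nkg7, and the receptor genes Ncr1 and Il2rb. Lck was not analysed here, since the annotation used listed no probe set under that symbol alone.

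The study compared FVB females carrying MMTV-iFGFR1, in which the promoter of the mouse mammary tumour virus drives an inducible fibroblast growth factor receptor 1, with littermates that lacked the transgene. That promoter is active mainly in mammary epithelium, and expression of the transgene in the sorted cells was not measured here. Mice of both genotypes were 6 weeks old at the start and received the dimerizer, the drug that brings the inducible receptors together, for 48 hours or for 4 weeks. The controls are therefore treated animals without a target for the drug. Mammary cells were freed with collagenase, stained with a Cd11b-PE antibody and sorted, and the cells of 3 mice were pooled for each array. Each of the 4 groups (each genotype at each time) had 2 pools. The labels of transgenic 4 weeks pool 2 disagree: the description says its mice lacked the transgene, and the title, the source and the genotype field say they carried it. It was kept as transgenic.

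T cells recognise antigen through a receptor that signals through the CD3 chains, with Lck as its first kinase and CD4 or CD8 as co-receptors. NK cells have no such receptor and read activating and inhibitory receptors such as NCR1. Both cell types kill with granzymes delivered through perforin pores, and both receive interleukins 2 and 15 through the beta chain that Il2rb encodes. In the mouse, mature NK cells carry Cd11b, as do macrophages, monocytes, neutrophils and some dendritic cells, so a Cd11b gate can admit NK cells, while most resting T cells do not carry it. Macrophages meet these lymphocytes as antigen-presenting cells and as a source of interleukin 15.

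The values are MAS5 signals, a linear brightness per probe set with no set zero, and the authors' scaling gave every array a trimmed mean of about 500. The median signal of an array ran from 96.4 to 126.9. Macrophage genes were far brighter: Csf1r, the receptor of the main macrophage growth factor, gave 68311 to 93065, and Adgre1, a macrophage adhesion receptor, 9842 to 14627, so the sorted cells carried the macrophage markers of their label. Itgam, the gene of Cd11b itself, gave only 46.8 to 545. One array stood apart in RNA quality: the signal of the beta-actin control at its 3' end over that at its 5' end, a ratio that is higher in degraded RNA, was 37.0 in control 4 weeks pool 2 and 6.84 to 13.9 in the other 7 arrays. No detection calls were used, so a low signal cannot be told from none.

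Most of the T and NK cell genes were no brighter than a typical probe set. The share of an array's probe sets that were dimmer than the gene, its percentile, was used to place each one; this ranks probe sets and does not compare amounts of RNA between genes. Cd2 lay between percentiles 65.9 and 85.0 and was above the median on all 8 arrays. Gzma lay between percentiles 47.2 and 72.7 and was above the median on 7 arrays, and Nkg7 and Gzmb on 5 each. Cd3e and Cd3g were above it on 3 arrays each, Il2rb on 2 and Cd4 on 1. Ncr1, which in mice is largely restricted to NK and related innate lymphoid cells, was above it on 0 arrays, with a median percentile of 32.1. A gene entered the main test where its signal was above the array median on at least 2 arrays. Cd2, Cd3e, Cd3g, Gzma, Gzmb, Nkg7 and Il2rb passed, and Cd4 and Ncr1 did not, so their values come from a fit of all 18193 genes.

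**Figure D1:**
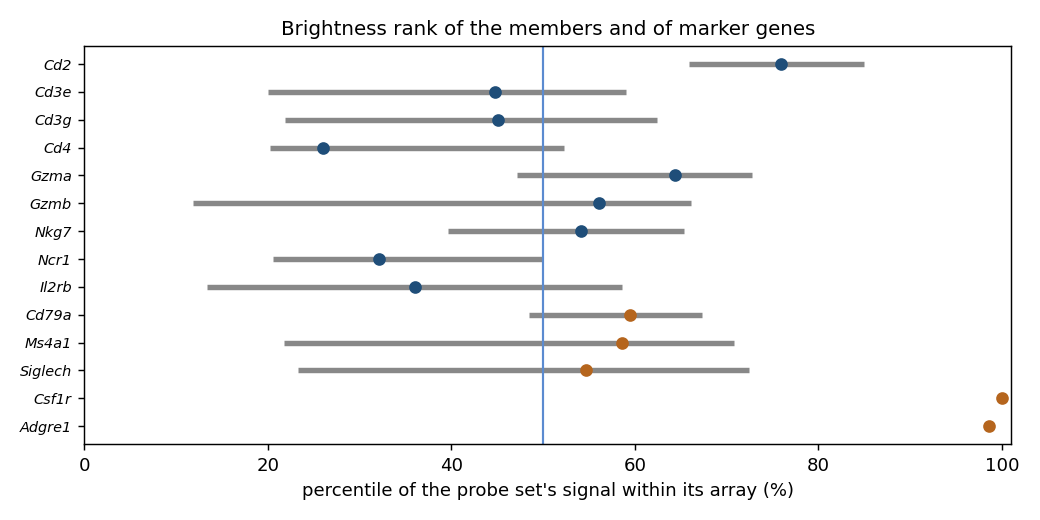
Brightness of the 9 T and NK cell genes among all probe sets of the same array, as the percentile of the signal; bars run from the lowest to the highest of 8 arrays, dots are medians and the vertical line is the array median. The 5 genes below them, Cd79a, Ms4a1, Siglech, Csf1r and Adgre1, are B cell, dendritic cell and macrophage markers for comparison. Of the 9 genes only Cd2 lies above the median on every array, and Ncr1 lies below it on every array.

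Among the T cell genes, Cd2 gave the one clear pattern. Cd2 is an adhesion and costimulatory receptor of T and NK cells that binds Cd48. At 48 hours its signal was 479 and 373 in the control pools, against 607 and 397 in the transgenic pools. At 4 weeks it was 253 and 243 in the control pools, against 753.5 and 906.5 in the transgenic pools. Both transgenic pools at 4 weeks were therefore above every other array, and both control pools at 4 weeks were below every other array, while the genotypes overlapped at 48 hours. The group means stood in the order control 4 weeks (248 ± 7.5), control 48 hours (426 ± 74.8), transgenic 48 hours (502 ± 149) and transgenic 4 weeks (830 ± 108; SD, n = 2 pools each), and of the neighbours in this order the pair at 48 hours does not differ beyond its spread.

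On the log2 scale, with 30.8 added to each signal, Cd2 was higher in transgenic than in control pools at 4 weeks by 1.62 (SE 0.31), which is 3.08-fold. The unadjusted p was 0.000374 in limma, the tenth smallest of the contrast, and the Benjamini-Hochberg adjusted p over 13041 genes was 0.488, so the difference did not pass. At 48 hours the difference was 0.20 (SE 0.31). The change of the genotype difference between the times was 1.42 (SE 0.44; unadjusted p = 0.00901, adjusted p = 0.988 in limma), which also did not pass. It is made of a lower signal at 4 weeks than at 48 hours in control pools, by −0.70 (adjusted p = 0.809), and a higher one in transgenic pools, by 0.71 (adjusted p = 1). Without control 4 weeks pool 2, the array with the high actin ratio, the difference at 4 weeks was 1.59 (adjusted p = 0.349). Without transgenic 4 weeks pool 2, whose labels disagree, it was 1.49 (adjusted p = 1).

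The CD3 chains did not follow Cd2. Cd3e encodes the epsilon chain, needed in every CD3 complex, and its signal was 91.8 and 90.9 in control pools against 73.5 and 158 in transgenic pools at 48 hours. At 4 weeks it was 55.7 and 163 in control pools against 136 and 18.8 in transgenic pools, so at that time the pools of one group lay further apart than any group means. Its log2 differences between groups ran from −0.62 to 0.20, each with an SE of 0.70, and the groups overlapped in all 4 comparisons.

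Cd3g encodes the gamma chain of the same complex. It gave 29.1 and 150 in control pools against 173.5 and 84.0 in transgenic pools at 48 hours, and 44.2 and 104 in control pools against 131 and 71.2 in transgenic pools at 4 weeks. Here too the groups overlapped in every comparison, with log2 differences from −0.25 to 0.56 (SE 0.67).

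Cd4, the co-receptor of helper T cells that some mouse dendritic cells and macrophages also carry, was the dimmest of the T cell genes by its median percentile. Its signal was 26.1 and 20.5 in control pools against 34.3 and 61.9 in transgenic pools at 48 hours, a log2 difference of 0.52 (SE 0.65) with no overlap. At 4 weeks the control pools gave 20.3 and 133 and the transgenic pools 101.5 and 25, which overlap. The other probe set for Cd4 gave 6.80 to 56.8 over the arrays, and with it the 48 hours difference was −0.17. The direction at 48 hours thus depends on the probe set.

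**Figure D2:**
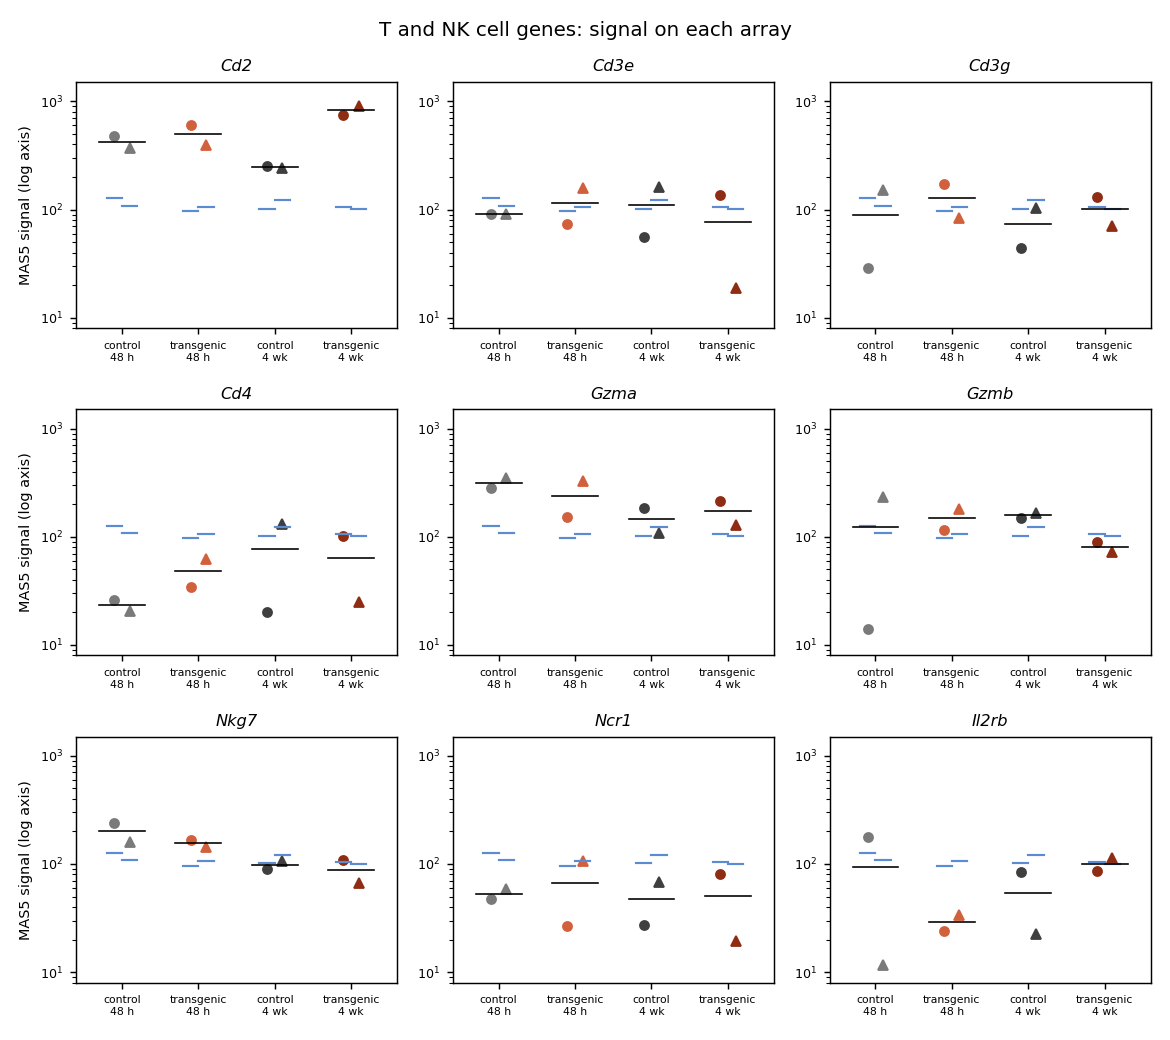
MAS5 signal on a log axis of the 9 T and NK cell genes on each of the 8 arrays by group; circles are pool 1, triangles pool 2, black lines group means of 2 pools and blue ticks each array's median signal. Cd2 reaches 753.5 and 906.5 in transgenic and 253 and 243 in control pools at 4 weeks, while Cd3e, Cd3g, Cd4 and Ncr1 scatter around or below the ticks.

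Of the granule genes, Gzma and Nkg7 had lower values at 4 weeks than at 48 hours in control pools. Gzma encodes granzyme A, a serine protease of cytotoxic granules. Its signal was 281 and 350 in control pools against 154 and 324 in transgenic pools at 48 hours, and 185.5 and 109 in control pools against 214 and 129 in transgenic pools at 4 weeks. Both control pools at 4 weeks lay below both at 48 hours, with a log2 difference of −0.98 (SE 0.45; unadjusted p = 0.0518, adjusted p = 0.816 in limma), and the transgenic pools of the times overlapped, with −0.37. Between genotypes the groups overlapped at both times, with −0.43 at 48 hours and 0.18 at 4 weeks.

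Nkg7, a membrane protein of cytotoxic granules in NK and killer T cells, had every array at 48 hours above every array at 4 weeks. At 48 hours it gave 240 and 161 in control pools against 165 and 144 in transgenic pools, and at 4 weeks 90.3 and 106 in control pools against 110 and 66.3 in transgenic pools. The log2 difference between the times was −0.82 in control (unadjusted p = 0.0953, adjusted p = 0.847) and −0.67 in transgenic pools (unadjusted p = 0.166; both SE 0.45, limma), and neither passed. The genotypes overlapped at both times, with log2 differences of −0.30 and −0.14. The lower values at 4 weeks were thus seen in controls and transgenic pools alike, and age and the length of treatment cannot be told apart there.

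Gzmb encodes granzyme B, which starts apoptosis in target cells. Its signal was 14 and 232 in the control pools at 48 hours, the widest gap between pools of 1 group among the 9 genes, at 2.55 on the log2 scale. The transgenic pools gave 115 and 182 at 48 hours and 89.2 and 73.0 at 4 weeks, and the control pools at 4 weeks 148 and 166. At 4 weeks the transgenic pools lay below the control pools by −0.75 (SE 0.73), the opposite side from Cd2. The comparisons with the control pools at 48 hours, 0.70 between genotypes and 0.79 between times, rest on the single signal of 14 and turned to −0.57 and −0.48 without that pool.

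The receptor genes were dim. Ncr1, the activating NK receptor also called NKp46, gave 47.6 and 58.6 in control pools against 26.6 and 105.5 in transgenic pools at 48 hours, and 27.3 and 68.5 in control pools against 81.0 and 19.6 in transgenic pools at 4 weeks. Its log2 differences between groups ran from −0.24 to 0.08 (SE 0.61), and all groups overlapped. Il2rb gave 177 and 11.6 in control pools against 24.1 and 33.7 in transgenic pools at 48 hours, and 84.0 and 22.7 in control pools against 86.3 and 113 in transgenic pools at 4 weeks. Its transgenic pools at 4 weeks were above the controls of that time by 0.73 and above the transgenic pools at 48 hours by 1.12 (SE 0.83). Il2rb entered the main test through control 48 hours pool 1 and transgenic 4 weeks pool 2, the arrays where it was high, and its other probe set gave 4.40 to 35.8 and a 4 weeks difference of −0.0026.

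Counted over the 9 genes, the comparisons gave no common direction. At 48 hours 0 of 9 passed an adjusted p of 0.05 in limma, as did 0% of all 13041 genes, with a lowest adjusted p of 0.408. At an unadjusted p under 0.05 there were 0 of 9, against 4.07% of all genes. Of the 9 differences 6 were positive, their median was 0.20 beside 0.04 for all genes tested, and 1 gene, Cd4, was higher without overlap, against 16.8% of all 18193 genes in that direction. Lower without overlap were 0 of 9, against 17.8%.

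At 4 weeks, again, 0 of 9 genes and 0% of all genes passed in limma, with a lowest adjusted p of 0.215. Cd2 alone, 1 of 9, had an unadjusted p under 0.05, against 5.08% of all genes. Of the differences 4 were positive and 5 negative, with a median of −0.02 for these genes and −0.02 for all genes. Cd2 and Il2rb were higher without overlap (2 of 9, against 14.3% of all 18193 genes) and Gzmb was lower (1 of 9, against 18.3%). These shares lie near the background, so the list as a whole did not stand out in either genotype comparison.

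Between 4 weeks and 48 hours in control pools, 0 of the 9 genes passed, against 0.00767% of all genes in limma, which is 1 gene, the coagulation factor gene F5 with a log2 difference of −2.36 (adjusted p = 0.04). Of the differences 3 were positive and 6 negative, with a median of −0.14 beside 0.05 for all genes. Cd2, Gzma and Nkg7 were lower without overlap (3 of 9, against 14.7% of all 18193 genes) and 0 of 9 were higher, against 17.4%. Cd2 was the 1 member with an unadjusted p under 0.05 in limma, at 0.0473, against 6.16% of all genes.

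In transgenic pools the same contrast of the times had 3 positive and 6 negative differences, a median of −0.25 beside −0.01, and 0 of 9 genes passing, as did 0% of all genes, with a lowest adjusted p of 1 in limma. Cd2 and Il2rb were higher without overlap (2 of 9, against 14.9% of all 18193 genes), and Gzmb and Nkg7 were lower (2 of 9, against 14.7%). Cd2 was the 1 member with an unadjusted p under 0.05 in limma, at 0.0443, against 2.19% of all genes. For the difference between the genotype differences, 0 of 9 genes and 0% of all genes passed, and Cd2 was again the 1 of 9 with an unadjusted p under 0.05, against 4.74%. The comparisons share arrays in pairs, so they are not independent of each other. In bulk RNA of sorted cells, fewer cells of a type and less RNA per cell cannot be told apart.

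**Figure D3:**
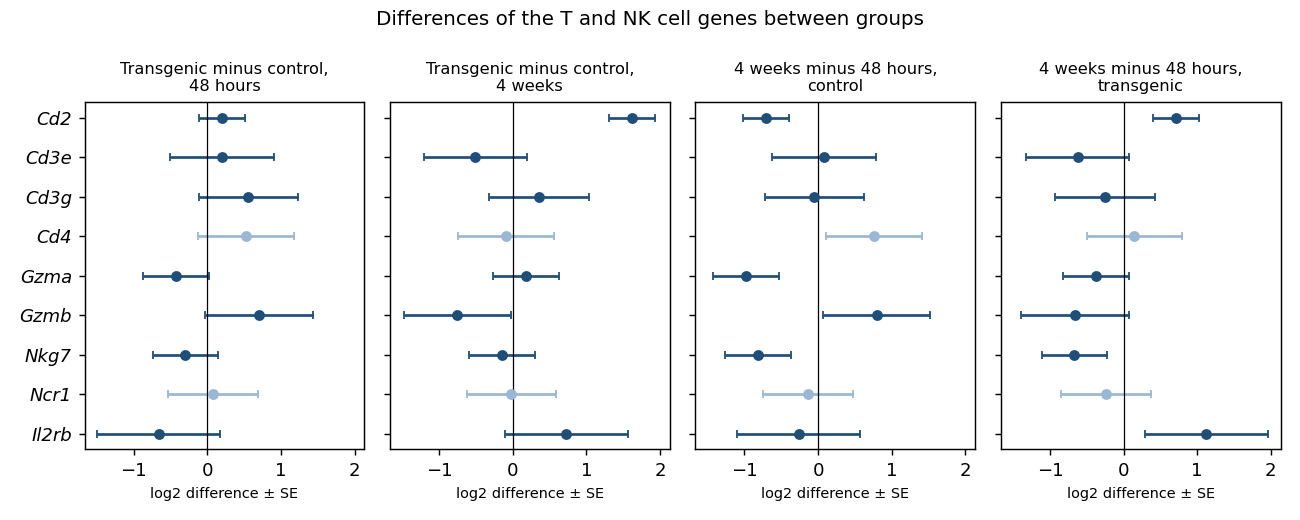
Log2 differences (points) with their standard errors (bars) of the 9 T and NK cell genes in the 4 comparisons; dark points are genes in the main test and pale points, Cd4 and Ncr1, come from the fit of all genes. Cd2 stands at 1.62 in the transgenic minus control comparison at 4 weeks, and most other bars cross 0.

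The pools of 1 group often disagreed over these genes. In the transgenic group at 4 weeks, 7 of 9 genes were brighter in pool 1, all but Cd2 and Il2rb, and Cd3e differed between the pools by 1.75 on the log2 scale. In the control group at 4 weeks, 6 of 9 were brighter in pool 2, the array with the high actin ratio, with Cd4 apart by 1.68. The median gap between pools over the 9 genes was 0.77 in that group and 0.62 in the transgenic group at 4 weeks, beside 0.45 and 0.37 over all 18193 genes. At 48 hours it was 0.34 in control and 0.58 in transgenic pools, beside 0.41 and 0.36. Apart from control pools at 48 hours, the 9 genes thus varied more between pools than the middle gene of the array, and most of them were also dim.

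The wider machinery of T cells was read from a list of 21 measured genes of the T cell receptor and its signalling, of which 15 were bright enough for the main test. In limma 0 of 21 passed in any comparison. At an unadjusted p under 0.05 there were 0 higher and 1 lower at 48 hours, against 4.07% of all genes tested in either direction. At 4 weeks there were 2 higher and 0 lower, against 5.08%. At 48 hours 4 differences were positive and 17 negative, with a median of −0.26, and at 4 weeks 15 were positive and 6 negative, with a median of 0.13. Of all 18193 genes, 50% were positive at 48 hours and 46.4% at 4 weeks. In control pools 19 of 21 had a negative difference from 48 hours to 4 weeks, with a median of −0.55, while the transgenic pools had 12 positive and 9 negative and a median of 0.12. Between these times 53.6% of all 18193 genes were positive in control pools and 49.3% in transgenic pools. The genotype comparison at 48 hours and that of the times in control pools share the control pools at 48 hours. The 17 and the 19 negative differences are thus not independent of each other. The summed signal of the list was 5529 to 9939 in control and 3967 to 6396 in transgenic pools at 48 hours, and 3271 to 3991 in control and 4081 to 4583 in transgenic pools at 4 weeks.

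Cd8a, which encodes the alpha chain of the CD8 co-receptor, made up 31.5% to 52.1% of that sum on the arrays at 48 hours and 7.45% to 24.3% at 4 weeks. It was read only from the brightest probe set under that symbol alone, and no other probe set for Cd8a was looked at. The name of this probe set ends in _x_at, which marks probe sets that may also bind other transcripts. How much of its signal comes from Cd8a was not tested. Its signal was 5174 and 2021 in control pools against 2568 and 1250 in transgenic pools at 48 hours, and 522 and 297 in control pools against 796 and 991 in transgenic pools at 4 weeks. The transgenic pools were therefore above the control pools at 4 weeks, and in both genotypes both pools at 4 weeks were below both at 48 hours. The genotype difference at 4 weeks was 1.11 (SE 0.47; unadjusted p = 0.0403, adjusted p = 0.965), and the difference between times in control pools was −2.94 (unadjusted p = 9.07e-05, adjusted p = 0.226 in limma). Neither passed.

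Cd8b1, the beta chain that pairs with the alpha chain on most killer T cells, gave 7.90 to 149 with overlap in every comparison. Cd3d, the delta chain of CD3, gave 15.2 to 235.5, and its transgenic pools at 4 weeks held both of these extremes, while its control pools were lower at 4 weeks (29.2 and 25.9) than at 48 hours (85.4 and 71.6) without overlap. Cd8a is also one of the dendritic cell genes listed further on. Zap70, the kinase that follows Lck in T and NK cells, gave 787 to 1804 with overlap in all comparisons, and Thy1, a surface protein of T cells and of some stromal cells, 330.5 to 758. Cd27, a costimulatory receptor, was dim at 6.40 to 106 and was higher in transgenic pools at 4 weeks by 1.27 (unadjusted p = 0.0233, adjusted p = 0.927), and Skap1, an adaptor of the receptor, was lower at 48 hours by −1.51 (unadjusted p = 0.0387, adjusted p = 0.976 in limma).

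**Figure D4:**
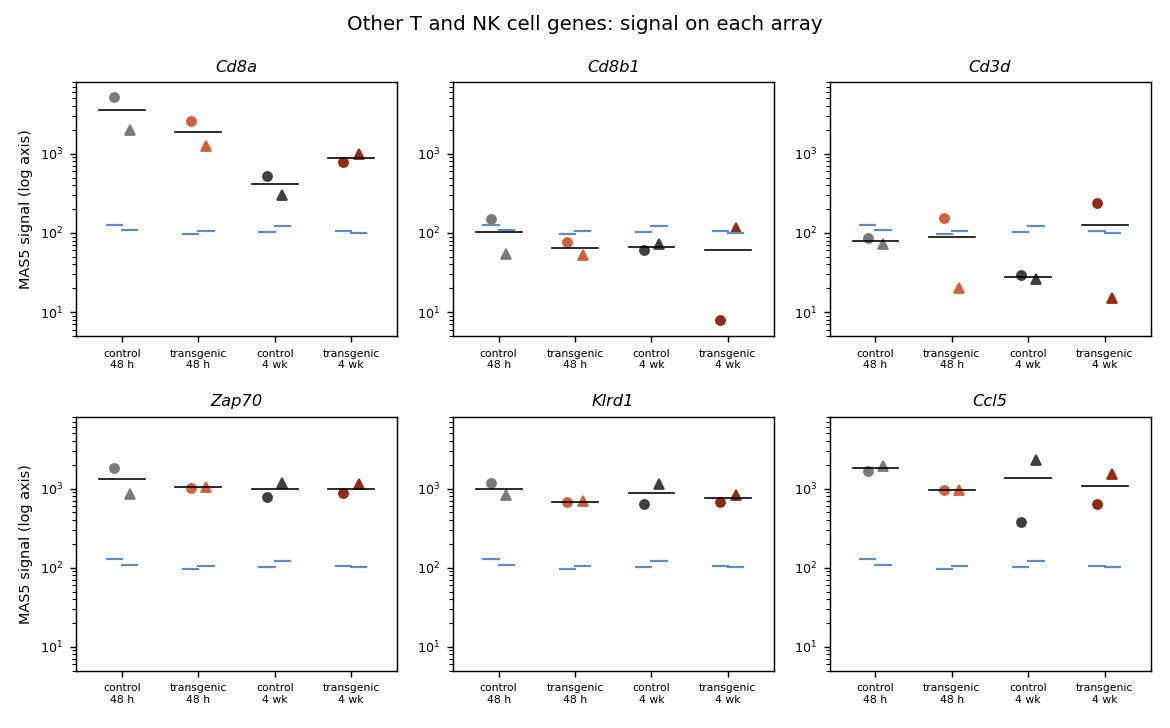
MAS5 signal on a log axis of 6 further T and NK cell genes on each of the 8 arrays by group; circles are pool 1, triangles pool 2, black lines group means of 2 pools and blue ticks each array's median signal. Cd8a runs from 5174 in control pool 1 at 48 hours to 297 in control pool 2 at 4 weeks, while Cd3d runs from 15.2 to 235.5 within the transgenic pools at 4 weeks and Cd8b1 from 7.90 to 149 over all arrays.

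T cell subset and activation genes, 19 measured, had 7 positive and 12 negative differences at 48 hours with a median of −0.33, and 9 positive and 10 negative at 4 weeks with a median of −0.01. Ccr6, a chemokine receptor, was lower in transgenic pools at 48 hours by −1.63 (unadjusted p = 0.0309), and Rora, a nuclear receptor of interleukin 17 producing and innate lymphoid cells, by −1.38 (unadjusted p = 0.0355; both with an adjusted p of 0.976 in limma). Il4, the cytokine of type 2 helper cells, was lower at 4 weeks than at 48 hours in control pools by −2.08 (unadjusted p = 0.0082, adjusted p = 0.626 in limma). Of the 19 genes 0 passed in any comparison in limma. At an unadjusted p under 0.05 there were 2 between genotypes at 48 hours, both lower, against 4.07% of all genes tested. At 4 weeks there were 0, against 5.08%.

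NK receptors and their regulators, 15 measured, split evenly, with 8 positive and 7 negative differences at 48 hours and the same split at 4 weeks, and medians of 0.05 and 0.03. Klrd1, the CD94 chain of an NK receptor for MHC molecules, gave 638 to 1166 and was lower in transgenic pools at 48 hours without overlap, by −0.50 (unadjusted p = 0.152, adjusted p = 0.976 in limma). Klrk1, the activating receptor NKG2D, gave 55.5 to 282, and Eomes, a transcription factor of NK and killer T cells, 66.4 to 151. Ccl5, a chemokine that killer T cells, NK cells and macrophages all make, gave 1684 and 1923 in control pools against 947.5 and 970 in transgenic pools at 48 hours, lower without overlap by −0.89 (SE 0.67; adjusted p = 0.976 in limma). At 4 weeks its control pools lay at 375 and 2319 and covered both transgenic pools. In limma 0 of 15 genes passed in any comparison, and 0 had an unadjusted p under 0.05 in either genotype comparison.

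The list of other granule proteins and death ligands had 7 positive and 11 negative differences of 18 at 48 hours and 9 of each at 4 weeks. Prf1, perforin, gave 48.2 to 150 and Gzmk, another granzyme, 6.30 to 121. Tnfsf10, the death ligand TRAIL, was lower in transgenic pools at 4 weeks by −1.11 (unadjusted p = 0.0276, adjusted p = 0.965 in limma), the 1 of 18 genes under 0.05 unadjusted in a genotype comparison, and 0 of 18 passed in any comparison.

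The 7 measured genes of interleukin 2 and 15 signalling had 3 positive and 4 negative differences at 48 hours and 4 and 3 at 4 weeks. The 7 measured ligands of T and NK cell receptors had 3 positive and 4 negative at 48 hours and 6 and 1 at 4 weeks, and in limma 0 genes of either list passed. On the side of the macrophage, Il15, the cytokine that sustains NK cells, gave 503 to 1197, with a genotype difference of −0.44 at 48 hours and −0.26 at 4 weeks (SE 0.38). Cd48, the ligand of Cd2 in the mouse, gave 1606 to 2903. It was higher in transgenic than in control pools at 48 hours without overlap, by 0.49 (SE 0.29; unadjusted p = 0.121, adjusted p = 0.976 in limma), and overlapped at 4 weeks with a difference of 0.02. Its values at 4 weeks therefore did not part the genotypes as those of Cd2 did. Jak3, the kinase that the interleukin 2 and 15 receptors share, was lower in transgenic pools at 48 hours by −0.98 (unadjusted p = 0.0349, adjusted p = 0.976 in limma), the 1 gene of these lists under 0.05 unadjusted in a genotype comparison.

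Markers of other cells that a Cd11b gate or incomplete sorting can leave in were read beside these values, and in limma 0 genes of these lists passed in any comparison. Of 11 dendritic cell genes, 5 had a positive and 6 a negative difference at 4 weeks, with a median of −0.01. Without overlap, 5 were higher and 2 lower, against 14.3% and 18.3% of all 18193 genes. The list holds Cd8a, Cd4 and Ccr7, which also stand in the T cell lists. At an unadjusted p under 0.05 in limma, 3 of the 11 were higher and 1 lower, against 5.08% of all genes tested in either direction. Without the 3 shared genes, the other 8 had 3 positive and 5 negative differences, with a median of −0.20. Of these 8, 3 were higher and 2 lower without overlap.

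The defining dendritic markers had negative differences at 4 weeks: −0.01 for Flt3, −0.39 for Zbtb46, −0.84 for Xcr1, whose transgenic pools were lower without overlap, and −0.47 for Siglech. They were listed at 175 to 401, 110 to 340, 31.5 to 152 and 23.5 to 349. Bst2, a surface protein of plasmacytoid dendritic cells that interferon also induces, differed by −1.07 (unadjusted p = 0.0468). Itgax, the integrin CD11c, gave 474 and 1205 in control pools against 1443 and 2164 in transgenic pools, a difference of 1.19 (unadjusted p = 0.0151). Cd209a, a lectin of monocyte-derived dendritic cells, differed by 0.95 (unadjusted p = 0.0346; all 3 with an adjusted p of 0.965 in limma). The summed signal of the 8 genes was 3904 to 4303 in control and 5057 to 6471 in transgenic pools at 4 weeks, so the sum and most of its genes pointed opposite ways. Cd2 had its higher transgenic values in this comparison, and the part of dendritic cells in them was not tested.

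Of 9 mast cell and basophil genes, 1 had a positive and 8 a negative difference at 48 hours, while 50% of all 18193 genes had a positive one. Without overlap, 0 were higher and 2 lower at that time, against 16.8% and 17.8%. At 4 weeks 8 of the 9 had a positive difference, against 46.4% of all 18193 genes. Without overlap, 4 were higher, against 14.3% of all 18193 genes. Their summed signal was 1914 to 2056 in control and 2165 to 2662 in transgenic pools. The list holds Il4, which also stands in a T cell list. Without Il4, 7 of the other 8 were positive and 4 higher without overlap. The sum without it was 1826 to 2049 in control and 2109 to 2547.5 in transgenic pools. Ms4a2, the beta chain of the high-affinity IgE receptor, was dim at 17.9 to 172 and differed by 1.63 (unadjusted p = 0.00821, adjusted p = 0.965 in limma). The mast cell proteases Cpa3 and Cma1, the brightest of the list, overlapped between the genotypes at 4 weeks. Cpa3 gave 1247 and 898 in control pools against 1213.5 and 1151 in transgenic pools. Cma1 gave 531 and 642 in control pools against 762 and 413 in transgenic pools. The sums of the B cell genes overlapped at that time, at 645 to 1960 in control and 1001 to 1147 in transgenic pools, as did those of the macrophage genes, at 283282 to 345208 and 285412 to 294938.

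Neutrophil genes had lower sums in transgenic pools at both times. At 48 hours 8 of 10 had a negative difference, while 50% of all 18193 genes had a positive one. The summed signal was 15160 to 17194 in control and 9550 to 10402 in transgenic pools. S100a8 was lower without overlap by −1.21 (unadjusted p = 0.0274) and S100a9 by −1.28 (unadjusted p = 0.0184). Both had an adjusted p of 0.976 in limma. Ltf, the lactoferrin gene, went the other way without overlap, with 277 and 331 in control pools against 620 and 866 in transgenic pools. That difference was 1.19 (unadjusted p = 0.00177, adjusted p = 0.976 in limma), with the smallest p of the list. At 4 weeks 10 of 10 had a negative difference, Ltf included, while 46.4% of all 18193 genes had a positive one. S100a8 differed by −1.76 (unadjusted p = 0.00377, adjusted p = 0.893 in limma), without overlap. S100a9 differed by −1.54 (unadjusted p = 0.00705, adjusted p = 0.965 in limma), also without overlap. Between the times in control pools Ltf differed by 1.67, and S100a8 and S100a9 by −0.25 and −0.57, so Ltf did not follow this pair. The sum of the list at 4 weeks was 11329 to 23528 in control and 8309 to 8489 in transgenic pools. Such sums weigh the brightest genes most, here Mmp9, S100a8 and S100a9. The T cell receptor list had 17 of 21 negative differences at 48 hours and 6 of 21 at 4 weeks.

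Most epithelial genes parted the genotypes at 48 hours, with summed signals of 2476 to 2762 in control and 12040 to 13695 in transgenic pools. Of 8 differences 6 were positive, against 50% of all 18193 genes, and 6 were higher without overlap, against 16.8%. At an unadjusted p under 0.05 in limma there were 5 of 8, against 4.07% of all genes tested. The milk protein gene Csn3 weighed most in these sums, with 855 and 974 in control pools against 6146.5 and 7000 in transgenic pools. Krt14, a keratin gene, overlapped, at 140 and 19 in control pools against 99.5 and 19.9 in transgenic pools. Between the times in control pools the epithelial genes had 8 of 8 positive differences, 6 higher without overlap against 17.4% of all 18193 genes, with a median of 1.56. Their sum was 6820 to 14369 in control pools at 4 weeks. In this comparison of the times 19 of 21 T cell receptor genes had negative differences, while 53.6% of all 18193 genes had a positive one. Lower without overlap were 7 of those 21, Cd8a among them, against 14.7% of all 18193 genes. Of the 9 T and NK cell genes, 3 were: Cd2, Gzma and Nkg7. At 4 weeks the epithelial sums of the genotypes overlapped. No marker named in these lists was listed at exactly 0, and the part of any of these cells in the values of the T and NK cell genes was not tested.

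Likeness of pattern was measured as the root mean square difference of log2 values, each centred on its mean over the 8 arrays, among the genes that passed the filter. The genes most like Cd2, whose own values span 1.78 on the log2 scale, were Aldh1a2, an enzyme that makes retinoic acid, at 0.24, and Chn2, a signalling protein that acts on Rac, at 0.24. Aldh1a2 gave 1588 and 1311 in control pools against 3131 and 3158 in transgenic pools at 4 weeks. Chn2 gave 231 and 342 in control pools against 600.5 and 911 in transgenic pools at that time. Both were picked for likeness to Cd2 on these same arrays, so their parting of the genotypes there is no separate finding. The genes most like Nkg7 were Castor2 and Opn3, both at 0.12, and those most like Gzma were Stmn2 at 0.15 and Nr1h4 at 0.17.

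For Cd3e the nearest were 2210010C04Rik at 0.22 and AU041133 at 0.22, for Cd3g Ptpn13 at 0.20 and Ildr2 at 0.26, for Gzmb Sh3d21 at 0.27 and Col4a5 at 0.27, and for Il2rb 9230116N13Rik at 0.25 and Bsn at 0.28. None of these is another of the T and NK cell genes, which were left out of the search. The mean pattern of the 7 genes past the filter was nearly flat, spanning 0.48 on the log2 scale, and the nearest to it were Atxn1, Grk6, Gne, Zw10 and Rbmxl1, at 0.08 to 0.10. Over 8 arrays and 13041 genes such near matches are a description only.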

How the data were processed

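Signals were deposited by the authors as linear intensity per probe set, made with MAS5 (version not given) per the submitters' processing notes. Each array was scaled to a trimmed mean near 500. Of 45101 probe sets, 34945 carried 1 gene symbol, 932 several, 9160 none, and 64 were controls. Per gene, the probe set with 1 symbol and the highest mean signal was used. An offset of 30.8, the table's 25th percentile, was added to the signals before log2. Fold changes on this scale understate those of dim genes. Genes above the array median on at least 2 arrays (13041) were fitted in R 4.3.3 using limma 3.58.1 (a mean for each of 4 groups, eBayes with a trend, 4 residual degrees of freedom), two-sided, with Benjamini-Hochberg adjustment over all genes and a threshold of 0.05. The p-values measure the spread between pools of 3 mice.

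The members and lists were chosen with earlier results of these data known. Named besides the members are up to 4 genes of each list with the smallest p or the highest signal, markers of the T, NK and other cell types, and the nearest genes by pattern. Cd8b1 and Gzmk fall outside this rule and were chosen after their values were seen. The fit was tested on simulated data. The correlation of the deviations of same-numbered pools from their group means ran from −0.0853 to 0.133, so the numbers were not taken as pairs. The alternatives were other offsets, filters, probe sets and normalization, no trend, array weights, the actin ratio as a covariate, only the 4 arrays of a contrast, a block for the pool number, and leaving out each pool. Figures were drawn with matplotlib 3.10.9 in Python 3.11.15.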

Additional observations from a re-analysis of the deposited data

Results flagged for a closer look

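The genotype difference of Cd2 was not alike at the 2 times. It was 1.42 larger on the log2 scale at 4 weeks than at 48 hours (SE 0.44; unadjusted p = 0.00901, adjusted p = 0.988 in limma), since both control pools had a lower signal at 4 weeks than both at 48 hours and both transgenic pools a higher one. The difference did not pass the adjustment over all genes, and it ran from 1.13 to 1.71 when single pools were left out.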

How the results depend on the processing

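None of the 37 differences of single T and NK cell genes passed an adjusted p of 0.05 in limma under any alternative run (662 values, lowest adjusted p 0.344). The Cd2 difference at 4 weeks ran from 1.39 to 1.75 over 19 alternatives (adjusted p 0.344 to 1). Of the 37 differences 11 kept their sign in every fit: those of Cd2 except at 48 hours, Nkg7 except between genotypes at 4 weeks, Gzma between times in control pools, Gzmb between genotypes at 4 weeks and between times in transgenic pools, and Il2rb between times in transgenic pools.

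Other settings turned 12 values, and the cause was not tested. Under the actin covariate, the genotype difference at 4 weeks became 0.16 for Cd3e, 0.75 for Cd4 and 0.54 for Ncr1, and the control time difference of Cd3e −0.19. With the other probe set, Cd4 became −0.17 at 48 hours, 0.30 at 4 weeks and −0.082 between times in control pools, and Il2rb −0.0026 at 4 weeks. With quantile normalization, Cd4 became 0.012 and Ncr1 0.073 at 4 weeks. Ncr1 was 0.0071 with the offset at the median, and Cd3g was 0.036 between times in control pools with no offset.

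Leaving out each pool gave these ranges where a sign turned. Between genotypes at 48 hours: Cd2 −0.085 to 0.49, Cd3e −0.23 to 0.63, Cd3g −0.24 to 1.35, Gzma −0.90 to 0.044, Gzmb −0.57 to 1.98, Il2rb −1.81 to 0.49, Ncr1 −0.54 to 0.70. At 4 weeks: Cd3e −1.38 to 0.37, Cd3g −0.067 to 0.78, Cd4 −0.93 to 0.75, Gzma −0.13 to 0.50, Ncr1 −0.59 to 0.56, Nkg7 −0.41 to 0.12. Between times in control pools: Cd3e −0.50 to 0.66, Cd3g −0.85 to 0.75, Cd4 −0.080 to 1.60, Gzmb −0.48 to 2.07, Il2rb −1.41 to 0.89, Ncr1 −0.53 to 0.25. In transgenic pools: Cd3e −1.50 to 0.25, Cd3g −0.67 to 0.16, Cd4 −0.48 to 0.77, Gzma −0.85 to 0.10, Ncr1 −0.86 to 0.39.

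Counts of genes called over all genes stayed small. With the pool number as a replicate block they were 2 between genotypes at 4 weeks and 4 between times in control pools, and the block changed no call of a T or NK cell gene. With the 4 arrays of a contrast alone, the count was 1 at 48 hours, 1 at 4 weeks and 0 between times in control pools. That last count was 7 with the actin covariate and 0 with array weights, the 75th percentile filter or no trend. Without single pools it ran from 0 to 7, and the other 4 counts from 0 to 1. The number of arrays and the low signals limit what could be seen: standard errors of the 9 genes in the 4 comparisons of groups ran from 0.31 to 0.83.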
